A study of Mus musculus with 49 samples.

Results

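The genes described here are 6 genes best known from germ cells and oocytes: the X-linked homeobox genes Rhox5, Rhox9 and Rhox13, the RNA-binding protein gene Dazl, the oocyte gene Ooep and the piRNA pathway gene Tdrd12. They were taken by name as every probe whose current mouse gene symbol is one of the 6, which gave 6 probes, 1 for each gene, out of 13852 genes named on the arrays. The study measured expression on 49 one-colour arrays of mouse embryonic fibroblasts, of the same fibroblasts infected with sets of reprogramming factors, and of pluripotent stem cell lines. It screened for factors that can replace OCT4 or SOX2 in making induced pluripotent stem cells.

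The fibroblasts (MEF) were labelled female, strain OGXICR, age D13.5 (days of embryonic life), and came from skin of limbs and tails after the epidermis was taken off. Factors were delivered by a doxycycline-inducible lentiviral system, and the time between infection and harvest is not given in the sources used here. MEF1 EV and MEF2 EV are fibroblasts infected with the control labelled EV, and served as references for the OCT4 and the SOX2 substitutes. SKM (SOX2, KLF4 and MYC) was given with 1 of 9 factors (GATA4, GATA6, SOX7, PAX1, CEBPa, HNF4a, GRB2, MIXL1 or OCT4 itself) or with EV. OKM (OCT4, KLF4 and MYC) was combined with EV, SOX1, SOX2, SOX3 or GMNN. Uninfected MEF were compared with 3 induced pluripotent stem cell (iPSC) lines, labelled G6Gm, G3 and Dlx3RNAi, of the fibroblasts' strain, sex and age, and with R1, an embryonic stem cell (ESC) line of strain 129. A further ESC line, B6, is of strain C57BL\6, and the labels give no sex for either ESC line. All 5 pluripotent lines grew on mitomycin C-treated MEF feeder cells, in a medium with inhibitors of MEK and GSK3 that LIF could replace. Each iPSC group is a single line, so a difference between groups is a difference between lines.

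OKM+EV, GATA4+SKM and ESC B6 had 3 arrays each and the other 20 groups had 2. The deposited intensities fall into 5 sets of arrays, each with its own scaling and its own missing probes, and values were compared only within a set. These were ESC B6; MEF2 EV with OKM+EV; OKM with SOX1, SOX2, SOX3 or GMNN; MEF1 EV with all SKM groups; and uninfected MEF with G6Gm, G3, Dlx3RNAi and R1. Rhox9, Rhox13 and Ooep had values in all 5 sets, Rhox5 and Tdrd12 had none in the SKM set, and Dazl had values only among the pluripotent lines and uninfected MEF. Each gene was measured by 1 probe, whose brightness cannot be set against that of another gene's probe. The probe sequences were not used here, so cross-hybridisation between Rhox genes was not examined.

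The Rhox genes are homeobox transcription factor genes clustered on the X chromosome, expressed mainly in testis, ovary and placenta. Dazl protein binds mRNAs and controls their translation in developing germ cells. Ooep is a subunit of the subcortical maternal complex of the oocyte and early embryo, and Tdrd12 is a Tudor-domain protein needed to make piRNAs, the small RNAs that silence transposons in the male germ line. Many germline genes are kept silent in somatic cells by DNA methylation of promoters that are rich in CpG dinucleotides, and by repressor complexes such as those of E2F6, MGA and PCGF6.

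In build GRCm38.p6 the genes lie on 4 chromosomes. RefSeq places Rhox5 at chrX:37754608-37808878, Rhox9 at chrX:37899097-37901770 and Rhox13 at chrX:38120840-38129966. Dazl lies at chr17:50279393-50293620, Ooep at chr9:78376903-78378588 and Tdrd12 at chr7:35466941-35537784.

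RefSeq promoter windows of 300 bases, from 250 before to 50 after the start of a transcript (the same build), were found for 5 of the 6 genes and not for Rhox9. The members did not share 1 type of promoter. The Dazl window held 28 CpG dinucleotides, and 14.2% of all 32851 windows held at least as many. Ooep had 15 and the windows of 2 Tdrd12 transcripts, which overlap, had 11 and 9. Rhox5 and Rhox13 had 5 each, below the median of 7 over all windows. The windows of Dazl (chr17:50293571-50293870, minus strand), Rhox5 (chrX:37754358-37754657, plus strand) and Rhox13 (chrX:38120590-38120889, plus strand) are shown because they are the richest and the poorest of the group in CpG, while all 3 genes were dim in fibroblasts and bright in the pluripotent lines. They are written 5′ to 3′, and capitals mark each CpG.

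Dazl: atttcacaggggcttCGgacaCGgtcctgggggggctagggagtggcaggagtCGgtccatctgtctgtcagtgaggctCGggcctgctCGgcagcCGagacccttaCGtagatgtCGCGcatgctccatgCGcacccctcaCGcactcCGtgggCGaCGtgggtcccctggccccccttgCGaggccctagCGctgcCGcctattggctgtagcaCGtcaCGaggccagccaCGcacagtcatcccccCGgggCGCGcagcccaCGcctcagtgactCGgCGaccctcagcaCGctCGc

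Rhox5: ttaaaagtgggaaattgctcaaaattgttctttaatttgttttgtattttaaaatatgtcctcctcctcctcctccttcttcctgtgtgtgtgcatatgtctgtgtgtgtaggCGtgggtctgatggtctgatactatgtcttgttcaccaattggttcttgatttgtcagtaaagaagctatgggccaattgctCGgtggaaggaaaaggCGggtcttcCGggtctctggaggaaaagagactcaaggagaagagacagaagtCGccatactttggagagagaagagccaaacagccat

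Rhox13: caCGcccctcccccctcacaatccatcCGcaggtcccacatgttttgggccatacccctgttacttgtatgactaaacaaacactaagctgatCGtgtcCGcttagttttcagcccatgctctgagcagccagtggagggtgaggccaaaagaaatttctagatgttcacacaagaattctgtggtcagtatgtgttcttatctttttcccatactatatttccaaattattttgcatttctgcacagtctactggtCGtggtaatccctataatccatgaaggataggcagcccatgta

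The E-box CACGTG, the E2F-type motif GGCGGGA and the octamer-type motif ATGCAAA were searched on both strands. CACGTG and GGCGGGA were in none of the 6 windows of the 5 genes, and 7.2% and 11.3% of all windows held them. ATGCAAA was in the Rhox13 window alone, against 4.6% of all windows. A match is a description of these letters, not a site, and the arrays hold no measurement of methylation or of factor binding.

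Uninfected fibroblasts and the 4 pluripotent lines of their set were compared first. All 6 genes were near the dim end of the arrays in fibroblasts and far brighter in each pluripotent line, by 8.39-fold (Tdrd12) to 90.4-fold (Rhox5) on the mean of the lines. No array of a pluripotent line overlapped the fibroblast arrays for any of the 6. The share of all genes without such overlap was not counted, here or in the comparisons below. On the scale of log2(intensity + 32), on which all fold changes are given, every gene was tested with limma, and a gene is called where its p-value adjusted by Benjamini-Hochberg over all genes was under 0.05. All 6 were called higher, where 57.8% of the 11989 genes tested were called in either direction and 28.7% were called higher. The members were chosen with earlier results of these data known. Counts of members beside such shares, here and below, are therefore descriptions and no independent test. The labels do not say that arrays of a group came from separate cultures, so p-values measure the spread between these arrays, which may be technical. In RNA of a whole culture, more expressing cells and more RNA per cell cannot be told apart.

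Rhox5, the founding gene of the Rhox cluster, had intensities of 72.3 and 78.5 in the 2 fibroblast arrays. It reached 10817 and 10252 in G6Gm, 13913 and 17719 in G3, 8486 and 7835 in Dlx3RNAi, and 6179 and 6812 in R1. Its log2 fold change over the mean of the 4 lines was 6.50 (SE 0.17, adjusted p = 5.59e-17 by limma), and only 1 of the 11989 genes rose more.

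Rhox9, a gene of the same cluster, was 61.2 and 65.0 in fibroblasts. It was 863 and 892 in G6Gm, 3850 and 3564 in G3, 809 and 787 in Dlx3RNAi, and 873 and 864 in R1, so that the G3 arrays stood apart from the other 6. Over fibroblasts it rose by 3.73 log2 units (SE 0.16, adjusted p = 2.00e-18 by limma).

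Rhox13, a Rhox gene of the male germ line, was 66.0 and 51.5 in fibroblasts. It was 2878 and 2672 in G6Gm, 1980 and 1642 in G3, 414 and 386 in Dlx3RNAi, and 5638 and 4339 in R1. This was the widest spread of the 6 genes over the lines, with the mean of R1 12.5 times that of Dlx3RNAi. Over fibroblasts the mean of the lines was up by 4.33 log2 units (SE 0.17, adjusted p = 1.88e-19 by limma).

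Dazl was 39.5 and 20.3 in fibroblasts, where at most 0.4% of the 9896 probes measured on all arrays were dimmer. Its intensities were 1530 and 1428 in G6Gm, 2598 and 2507 in G3, 852 and 887 in Dlx3RNAi, and 4453 and 4838 in R1. No line overlapped another, and R1 was the brightest and Dlx3RNAi the dimmest. The rise over fibroblasts was 5.04 log2 units (SE 0.13, adjusted p = 9.46e-12 by limma).

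Ooep was 106 and 142 in fibroblasts, against 4091 and 4419 in G6Gm, 8244 and 8022 in G3, 4845 and 5260 in Dlx3RNAi, and 6907 and 6641 in R1. In all 8 arrays of the lines Ooep lay between percentiles 93.1 and 97.5 of those probes. The log2 fold change was 5.25 (SE 0.20, adjusted p = 5.53e-20 by limma).

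Tdrd12 was 45.1 and 29.0 in fibroblasts. It was 649.7 and 634 in G6Gm, 548 and 651 in G3, 579 and 619 in Dlx3RNAi, and 381 and 374 in R1, the lowest of the lines. Its log2 fold change was 3.07 (SE 0.15, adjusted p = 2.08e-12 by limma). Since several fibroblast values lie near the pseudocount of 32, the sizes of these changes depend on it, and the folds given understate the ratio of intensities.

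**Figure D1:**
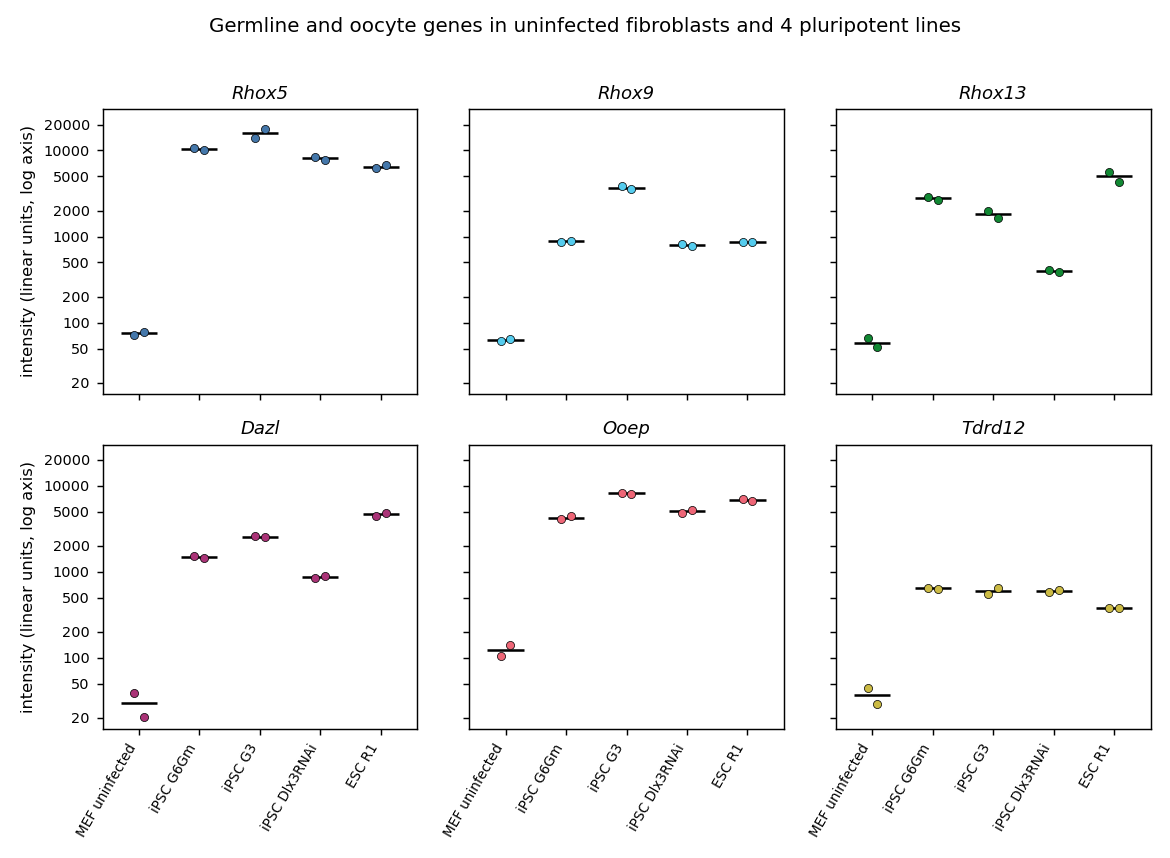
Intensity (log axis, linear units) of the 6 genes in uninfected MEF, iPSC lines G6Gm, G3 and Dlx3RNAi, and ESC line R1; each point is 1 of 2 arrays of a group and each bar is the group mean. In all 6 panels the pluripotent arrays lie above both fibroblast arrays; Rhox9 is highest in G3, and Rhox13 is lowest in Dlx3RNAi among the lines.

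Taken line by line, all 6 genes were called higher than in fibroblasts in each of G6Gm, G3, Dlx3RNAi and R1. In these 4 comparisons 18.5%, 25.4%, 23.3% and 25.7% of all genes were called higher. The 4 comparisons share the same 2 fibroblast arrays. The smallest change was Rhox13 in Dlx3RNAi, at 2.25 (SE 0.21, adjusted p = 5.67e-10 by limma), and the largest was Rhox5 in G3, at 7.20 (SE 0.21, adjusted p = 6.27e-16).

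Pluripotency and fibroblast markers followed the labels of these groups. All 6 pluripotency genes tested were higher in the lines than in fibroblasts, with a median log2 fold change of 3.42, and 14 of 15 fibroblast genes were lower, with a median of -2.08. The median of all genes was 0.04. The lines were not equal in fibroblast markers, however. The summed intensity of 15 of the 18 listed fibroblast genes was 93401 to 97819 in uninfected MEF, 61583 to 67298 in Dlx3RNAi, 47996 to 49354 in G6Gm, 31721 to 33020 in R1, and 16864 to 17230 in G3. The sum of 6 of the 17 listed pluripotency genes was 704 to 774 in MEF, 10293 to 10880 in Dlx3RNAi, 11979 to 12630 in G6Gm, 15924 to 17660 in G3, and 17730 to 18186 in R1. Markers of other cell types moved too. Of 16 trophoblast genes listed, 3 had values in this set, Pgf, Hand1 and Krt7, and all 3 were higher in the lines, with a median log2 fold change of 1.07. Their summed intensity was 850 to 1069 in MEF, 9443 to 10582 in G3, 11262 to 11674 in G6Gm, 17877 to 17887 in Dlx3RNAi and 18568 to 23338 in R1, most of it from Pgf, a placental growth factor, which was 13733 ± 4995 in the lines (SD, n = 8) and 197 ± 16.6 in MEF (n = 2). Of 12 keratinocyte genes 7 were higher and 1 lower (median 0.52), of 9 endoderm genes 2 were higher and 5 lower, and of 9 Sertoli and granulosa genes 2 were higher and 2 lower. The part of these cell types in the values of the Rhox genes, which placenta and gonads also express, was not tested.

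The label of Dlx3RNAi names RNA interference against Dlx3. The Dlx3 probe read 319 ± 91.5 in that line (SD, n = 2), against 118 ± 36.3 in uninfected fibroblasts and 573 ± 59.3 in R1, with G6Gm (266 ± 47.4) and G3 (375 ± 107) between them. It was higher than in MEF (log2 fold change 1.22, adjusted p = 0.00200 by limma) and was not called against G6Gm (0.22, adjusted p = 0.808), G3 (-0.21, adjusted p = 0.682) or R1 (-0.81, adjusted p = 0.0720). Dlx3RNAi is therefore used below as the name of a line only.

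The pluripotent lines were then compared with each other. The moderated F test called all 6 genes among the 4 lines, where it called 32.3% of all genes. For Ooep the call was lost without G6Gm replicate 1 (adjusted p = 0.0609) or G3 replicate 1 (adjusted p = 0.0579), and for Tdrd12 without R1 replicate 1 (0.120) or replicate 2 (0.141). In single comparisons with R1, members were called 4 times of 6 in G6Gm, 4 in G3 and 3 in Dlx3RNAi, where 17.6%, 8.42% and 19.4% of all genes were called. Between iPSC lines, 4 members differed between G6Gm and G3, 5 between Dlx3RNAi and G3, and 2 between Dlx3RNAi and G6Gm, where 19.7%, 25.3% and 2.83% of all genes did. These 6 comparisons share arrays with each other. The clearest differences were in Rhox9, Rhox13 and Dazl.

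Rhox9 in G3 was about 4 times its level in every other line. The log2 fold change was 2.05 against R1 (SE 0.20, adjusted p = 2.47e-08 by limma), and the other lines were below G3 by -2.04 (G6Gm, adjusted p = 7.52e-09) and -2.17 (Dlx3RNAi, adjusted p = 1.60e-09). G6Gm, Dlx3RNAi and R1 lay between 787 and 892, and their differences from each other, of 0.01, -0.12 and -0.13 log2 units, did not pass the test. The Dlx3RNAi arrays nevertheless lay below those of G6Gm and R1 without overlap, so a lack of overlap is not by itself a call. The 95% interval was -0.40 to 0.43 for G6Gm against R1.

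Rhox13 followed another order. It was lower than in R1 in G6Gm by -0.83 log2 units (SE 0.21, adjusted p = 0.00604 by limma), in G3 by -1.44 (SE 0.21, adjusted p = 2.71e-05) and in Dlx3RNAi by -3.53 (SE 0.21, adjusted p = 6.64e-13). In that last comparison no other of the 11989 genes had a lower fold change. Dlx3RNAi was also below G6Gm, by -2.70 (adjusted p = 8.07e-10), and below G3, by -2.09 (adjusted p = 8.41e-09). The call for G6Gm against R1 was lost without G6Gm replicate 2 (adjusted p = 0.0611) or R1 replicate 1 (0.120). G6Gm lay above G3 by 0.61 (adjusted p = 0.0410), a call that was lost without any 1 of the 4 arrays (adjusted p from 0.0620 to 0.278).

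Dazl was highest in R1, followed by G3, G6Gm and Dlx3RNAi. Against R1 its log2 fold change was -0.86 in G3 (SE 0.17, adjusted p = 0.00855 by limma), -1.63 in G6Gm (SE 0.17, adjusted p = 4.23e-05) and -2.37 in Dlx3RNAi (SE 0.17, adjusted p = 1.92e-06). The call for G3 was lost without G3 replicate 1 (adjusted p = 0.0608), G3 replicate 2 (0.0704) or R1 replicate 2 (0.0786). Dlx3RNAi was below G3 by -1.52 (adjusted p = 4.09e-05). The difference of Dlx3RNAi from G6Gm, -0.74 (adjusted p = 0.0415), did not hold without any 1 of the 4 arrays (adjusted p from 0.186 to 0.253) nor with a pseudocount of 16 (0.0643). G6Gm was below G3 by -0.77 (adjusted p = 0.00684), and that call was lost without G6Gm replicate 2 (0.0569) or G3 replicate 1 (0.0528). The order of the lines in Dazl is also their order in the summed pluripotency markers given above. The line lowest in Dazl and Rhox13, Dlx3RNAi, had the highest fibroblast sum of the lines. The part of either marker list in these differences was not tested.

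Rhox5, Ooep and Tdrd12 differed less. Rhox5 was higher than in R1 in G3, by 1.27 (SE 0.21, adjusted p = 0.000516 by limma), and in G6Gm, by 0.70 (adjusted p = 0.0257), although the call in G6Gm was lost without any 1 of the 4 arrays (adjusted p from 0.0735 to 0.155). In Dlx3RNAi the difference of 0.33 from R1 was not called (95% interval -0.11 to 0.77, adjusted p = 0.325), and Dlx3RNAi was below G3 by -0.94 (adjusted p = 0.00224). In the fit over all 49 arrays Ooep was not called against R1 in any of the 3 lines, with log2 fold changes of -0.67 in G6Gm (95% interval -1.17 to -0.16, adjusted p = 0.0595), 0.26 in G3 (-0.24 to 0.77, 0.671) and -0.42 in Dlx3RNAi (-0.93 to 0.08, 0.265). A fit of the arrays of this set alone called it lower than R1 in G6Gm (adjusted p = 0.00118 by limma) and Dlx3RNAi (0.0155) and not in G3 (0.143). The G6Gm call was also gained with a pseudocount of 100 (0.0219) and with only genes above the median of all genes (0.0497). Ooep in G6Gm was below G3 by -0.93 (adjusted p = 0.00630, or 0.0620 without G6Gm replicate 1). Dlx3RNAi lay below G3 in Ooep by -0.68 (adjusted p = 0.0402), which was lost without any 1 of the 4 arrays (adjusted p from 0.106 to 0.170) and with a pseudocount of 16 (0.0515).

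Tdrd12 was close to the same level in the 3 iPSC lines, at 642 ± 11.3, 599.7 ± 73.0 and 599 ± 28.4 (SD, n = 2 each), and lower in R1, at 377 ± 5.14. Line by line the excess over R1 was 0.72 in G6Gm (adjusted p = 0.0126 by limma), 0.62 in Dlx3RNAi (adjusted p = 0.0280) and 0.62 in G3 (adjusted p = 0.0523, but 0.0118 in the set alone), and both calls were lost without any 1 of their 4 arrays (adjusted p from 0.0640 to 0.0793 and from 0.0819 to 0.153). The mean of the iPSC lines exceeded R1 by 0.65 (SE 0.16, adjusted p = 0.00785 by limma). That comparison of the 3 iPSC lines with R1 called 5 of the 6 genes, all but Ooep, where 7.19% of all genes were called higher in the iPSC lines and 6.33% lower. Rhox5 (0.77, adjusted p = 0.00457), Rhox9 (0.65, adjusted p = 0.00687) and Tdrd12 were higher in the iPSC lines, and Rhox13 (-1.93, adjusted p = 2.94e-09) and Dazl (-1.62, adjusted p = 1.19e-05) were higher in R1. Without R1 replicate 1, Rhox5 (adjusted p = 0.0975), Rhox9 (0.0842) and Tdrd12 (0.0831) lost the call. Without R1 replicate 2, Rhox9 (0.0922) and Tdrd12 (0.0957) did. The Rhox9 excess rests on G3, since its values in G6Gm and Dlx3RNAi overlapped or lay below those in R1. The 3 iPSC lines share a strain, while R1 is 1 line of another strain and of unlabelled sex. Cell type, strain, sex and line therefore cannot be told apart here.

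**Figure D2:**
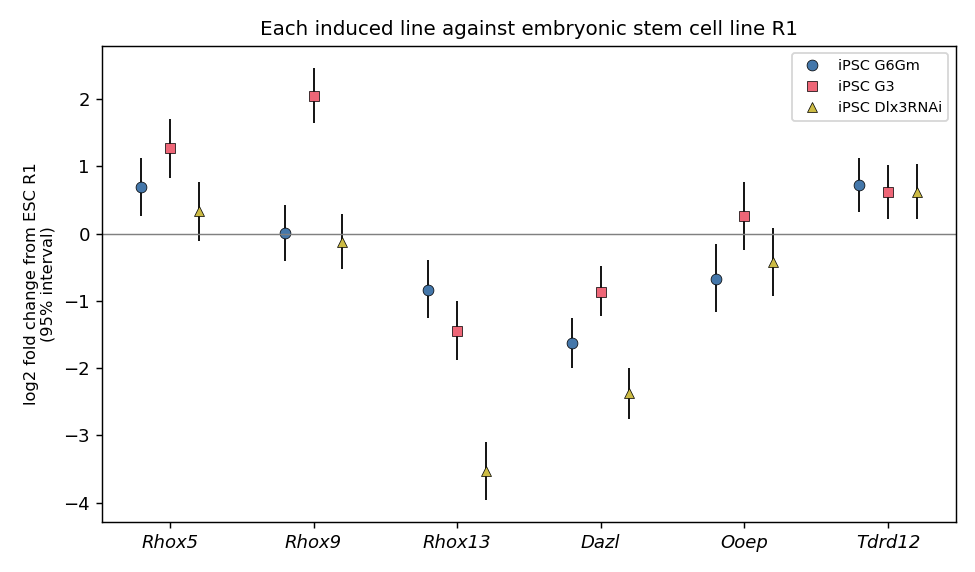
Log2 fold change of each iPSC line against ESC R1 for the 6 genes, from limma, with 95% intervals; the axis is in log2 units of intensity + 32, and all 3 lines share the same 2 R1 arrays. Rhox13 and Dazl lie below 0 in all 3 lines and lowest in Dlx3RNAi, while Rhox9 lies above 0 in G3 and near 0 in the other lines.

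Of the 11989 genes, the 5993 brightest over the 8 arrays of the lines were searched for those whose log2 intensities followed each member most closely. These were Mia2, Rhno1 and Ipp for Rhox9 (Pearson r = 0.998, 0.994 and 0.993), Vps54, Fndc3a and Kmt2c for Rhox13 (0.983, 0.977 and 0.977), and Rln1, Dnajc6 and Tfrc for Dazl (0.996, 0.994 and 0.993). For Ooep they were Wdr6, Apoc1 and Nmnat2 (0.990, 0.990 and 0.986), for Rhox5 Mb21d2, Fgfbp1 and Mrpl11 (0.966, 0.964 and 0.962), and for Tdrd12 Rnf41, Psmd8 and Ccdc124 (0.975, 0.972 and 0.969). With 8 arrays from 4 lines, such values describe mainly the order of the 4 line means.

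Other genes of the same pathways were counted from lists that leave the members out, and rose to different degrees between uninfected fibroblasts and the 4 lines. In the Rhox cluster, the 2 further genes with values in this set, Rhox1 and Rhox12, were both called higher. They stayed dim, however. Rhox1 was 37.3 ± 11.7 in MEF (SD, n = 2) and between 43.5 and 67.0 in the lines, and Rhox12 was 49.1 ± 4.98 in MEF and between 91.1 and 243 in the lines. The 8 piRNA pathway genes tested gave 3 higher, none lower and 5 that did not pass, with a median log2 fold change of 0.28 against 0.04 over all genes. Piwil2, a PIWI protein that binds piRNAs, rose from 45.5 to 612 (log2 fold change 2.97, adjusted p = 8.00e-09 by limma), and Ddx4, a germ cell RNA helicase, from 145 to 468 (1.43, adjusted p = 1.37e-05).

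Of 4 germ cell RNA regulators, 3 were higher and 1 lower, with Dnd1, an RNA-binding partner of Nanos proteins, at 2.03 (adjusted p = 7.32e-13 by limma) and Lin28b, which blocks let-7 maturation, at 1.92 (adjusted p = 9.56e-10). Of 9 oocyte and maternal genes, 4 were higher and 1 lower. Sohlh2, a transcription factor of germ cell differentiation, was 3.54 higher (adjusted p = 1.47e-12), and Tle6, which works with Ooep in the subcortical maternal complex, was 0.77 higher (adjusted p = 8.89e-05). Of 8 primordial germ cell genes, 4 were higher and 1 lower, among them Kit, the receptor for stem cell factor, at 4.27 (adjusted p = 1.26e-10), and Prdm1, a repressor needed to specify germ cells, at 1.61 (adjusted p = 6.35e-10). Of 8 meiosis genes, 6 were higher and none lower, with the meiotic cohesin genes Smc1b (2.25, adjusted p = 5.50e-09) and Rec8 (1.91, adjusted p = 5.19e-12) and the recombinase gene Dmc1 (1.77, adjusted p = 3.31e-08).

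The regulators of DNA methylation and repressors of germline genes were also mostly higher in the lines, 10 of 17, with 3 lower and a median of 0.78. The de novo methyltransferase gene Dnmt3b rose from 45.8 to 804 (3.33, adjusted p = 9.14e-15 by limma). Uhrf1, which guides maintenance methylation, rose by 2.46 (adjusted p = 5.98e-09), and Pcgf6, of the repressive complex named above, by 1.55 (adjusted p = 6.23e-13). These counts stand beside 28.7% of all genes called higher.

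Most of these genes did not pass the test between Dlx3RNAi and R1, and those that did were mostly lower, as were Rhox13 and Dazl. Kit was 991 ± 24.4 against 5676 ± 180.1 (SD, n = 2 each; -2.48, adjusted p = 4.29e-05 by limma), Sohlh2 was 1026 ± 106 against 3281 ± 285 (-1.65, adjusted p = 0.000616), Dnd1 was 355 ± 13.9 against 959 ± 0.659 (-1.36, adjusted p = 3.66e-06), and Smc1b was 285 ± 19.2 against 846 ± 74.0 (-1.47, adjusted p = 0.000185). Of the 8 meiosis genes 3 were lower and none higher, of the 8 primordial germ cell genes 2 were lower and 1 higher (median 0.02), of the 4 germ cell RNA genes 1 was lower, and of the 9 oocyte genes 1 was lower. Of the 17 methylation and repressor genes 4 were lower and 1 higher, and limma called none of the 8 piRNA genes and neither of the 2 further Rhox genes. Over all genes 9.78% were called lower. In the set alone, 2 piRNA genes were called higher and 3 lower. Fibroblast genes moved the other way, with 11 of 15 higher in Dlx3RNAi and a median of 1.05, and 3 of 6 pluripotency genes were lower, with a median of -0.61. Their part in these differences was not tested.

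ESC line B6 was alone in its set, so its values have no comparison. Its 3 arrays gave 17648, 19148 and 18510 for Rhox5, 745, 803 and 712 for Rhox9, 554, 472 and 556 for Rhox13, 1019, 988 and 1106 for Dazl, 9980, 11167 and 9274 for Ooep, and 2676, 2544 and 2946 for Tdrd12. Within its own arrays Rhox5 lay at percentiles 97.6 to 98.0 of those 9896 probes, Ooep at 93.3 to 94.9, Tdrd12 at 74.1 to 76.9, Dazl at 54.9 to 57.2, Rhox9 at 48.4 to 50.8 and Rhox13 at 40.4 to 43.6. The summed fibroblast markers of B6 were 2359 to 2497, over 13 of the 18 listed genes, on its own scale.

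The fibroblasts infected with OKM+EV were compared with MEF2 EV to see what the 3 factors alone did. Rhox5 rose clearly, Rhox9 and Ooep rose by less than 1 log2 unit in a call that depended on the fit, and Rhox13 and Tdrd12 were not called and stayed at the dim end. The fit over all 49 arrays called 3 of the 5 genes measured, all higher, where 40.8% of all 11948 genes were called in either direction. Arrays of this set were noisier than the rest, with a median within-group SD of 0.386 log2 units against 0.105 to 0.222 in the other sets. A fit of these 5 arrays alone called 5.57% of all genes, and its p-values are given beside the others.

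Rhox5 was 109.8 and 189.6 in MEF2 EV and 799, 797 and 1101 in OKM+EV, with no overlap. The log2 fold change was 2.38 (SE 0.19, adjusted p = 5.89e-09 by limma, and 0.0167 in the fit of this set alone). Rhox9 was 143 and 105 against 239.8, 171 and 343, a change of 0.83 (adjusted p = 0.000541, but 0.249 in the set alone). Ooep was 165 and 112 against 305, 407 and 170.2, a change of 0.88 (adjusted p = 0.00212, but 0.283 in the set alone and 0.0807 without MEF2 EV replicate 2). Rhox5 is thus the 1 gene of the 5 that was called by both fits. Rhox13 was 103 and 89.6 against 102, 138 and 70.0 (0.05, adjusted p = 0.874), and Tdrd12 was 65.0 and 85.6 against 122, 73.8 and 72.8 (0.16, adjusted p = 0.490), both with overlapping arrays.

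Among the related genes, Piwil2 was 967 ± 54.4 in OKM+EV (SD, n = 3) and 128 ± 6.51 in MEF2 EV (n = 2), a log2 fold change of 2.64 (adjusted p = 1.64e-06 by limma, and 0.00726 in the set alone). Pcgf6 was 821 ± 148 against 243 ± 36.2 (1.62, adjusted p = 1.17e-11, and 0.0457 in the set alone). The set-alone fit called no gene of 10 meiosis, 9 primordial germ cell, 10 oocyte and 5 germ cell RNA genes, while the fit over all arrays called 4, 5, 2 and 2 of them. Keratinocyte markers were far higher in OKM+EV, at a summed intensity of 53248 to 82533 over 13 of 15 genes against 3931 to 4376 in MEF2 EV, and the 9 pluripotency markers with a value summed to 2940 to 6263 against 1825 to 2057. Trophoblast markers summed to 4360 to 6502 against 2354 to 2636, over 7 of 16 genes, of which 3 were called higher and 1 lower, and 1 higher in the set alone. The part of these markers in the change of Rhox5 was not tested.

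The next comparison asked how SOX1, SOX3 and GMNN compare with SOX2 as the partner of OKM. These 4 groups had their own set, and could not be set against MEF2 EV or OKM+EV. Rhox9 was high with SOX3 alone, and Ooep was highest with SOX2. The F test among the 4 groups called Rhox9 (adjusted p = 6.29e-10 by limma, and 0.00332 in the set alone) and Ooep (0.000653, and 0.0471 in the set alone), where it called 20% of all 11189 genes, and 2.04% in the set alone.

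Rhox9 was 952 and 875 with OKM+SOX3. It was 219 and 171 with SOX2, 131 and 183 with SOX1, and 145 and 145 with GMNN, so that the SOX3 arrays lay about 4 times or more above the other 6. The log2 fold change of SOX3 was 2.06 against SOX2 (SE 0.20, adjusted p = 1.53e-07 by limma, and 0.0100 in the set alone). Against SOX1 it was 2.33 (adjusted p = 1.55e-08, and 0.0127 in the set alone) and against GMNN 2.42 (adjusted p = 1.30e-09, and 0.00273 in the set alone), comparisons added after the values were seen, in which 9.08% and 12.4% of all genes were called, and 0.384% and 3.72% in the set alone. Rhox9 was the 1 member called in each. Only 2 of the 11189 genes rose more with SOX3 against SOX1. SOX1 (-0.27, adjusted p = 0.527) and GMNN (-0.35, adjusted p = 0.384) were not called against SOX2.

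Ooep was 873 and 720.5 with SOX2, against 441 and 328 with SOX1, 351 and 436 with SOX3, and 261 and 270.2 with GMNN. None of the other 6 arrays reached the SOX2 arrays. Arrays were left out only in the fit over all arrays. The difference from SOX2 was -1.47 for GMNN (SE 0.25, adjusted p = 0.000176 by limma, and 0.0164 in the set alone), and in the fit over all arrays this call held without any 1 of the 4 arrays. For SOX1 it was -1.0 (adjusted p = 0.0173, but 0.222 in the set alone, 0.188 without SOX1 replicate 2 and 0.221 without SOX2 replicate 1). For SOX3 it was -0.96 (adjusted p = 0.0183, but 0.179 in the set alone, and 0.259, 0.156 and 0.0501 without SOX2 replicate 1, SOX3 replicate 1 or SOX3 replicate 2).

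In these 3 comparisons with SOX2, 1 member of 5 was called with SOX1, 2 with SOX3 and 1 with GMNN, where 5.72%, 6.32% and 7.22% of all genes were called. In the set alone these shares were 0.197%, 0.241% and 2.01%. The comparisons share the SOX2 arrays. Rhox5 lay between 654 and 1192 in all 8 arrays and was not called by the F test (adjusted p = 0.177). Rhox13 lay between 65.8 and 150.1 and Tdrd12 between 61.7 and 102. Rhox13 was called by the F test only without SOX2 replicate 2 (adjusted p = 0.0265, against 0.261 with it), and was then also called lower with SOX1 (-0.82, adjusted p = 0.0188) and GMNN (-0.80, adjusted p = 0.0208) than with SOX2. The value of that array was 73.3, beside 150.1 in the other SOX2 array. Rhox12 was 288 ± 79.7 with SOX3 and 173 ± 22.4 with SOX2 (SD, n = 2 each) and did not pass. The summed pluripotency markers were 2735 to 2850 with SOX3 and 3450 to 3793 with SOX2, over 9 of 17 genes, and keratinocyte markers 61349 to 64500 against 45284 to 45833, over 13 of 15. Trophoblast markers, over 7 of 16 genes, summed to 4673 to 5181 with SOX3, 3523 to 4576 with SOX2, 3475 to 3615 with SOX1 and 3646 to 3811 with GMNN. Their part in the Rhox9 and Ooep differences was not tested.

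**Figure D3:**
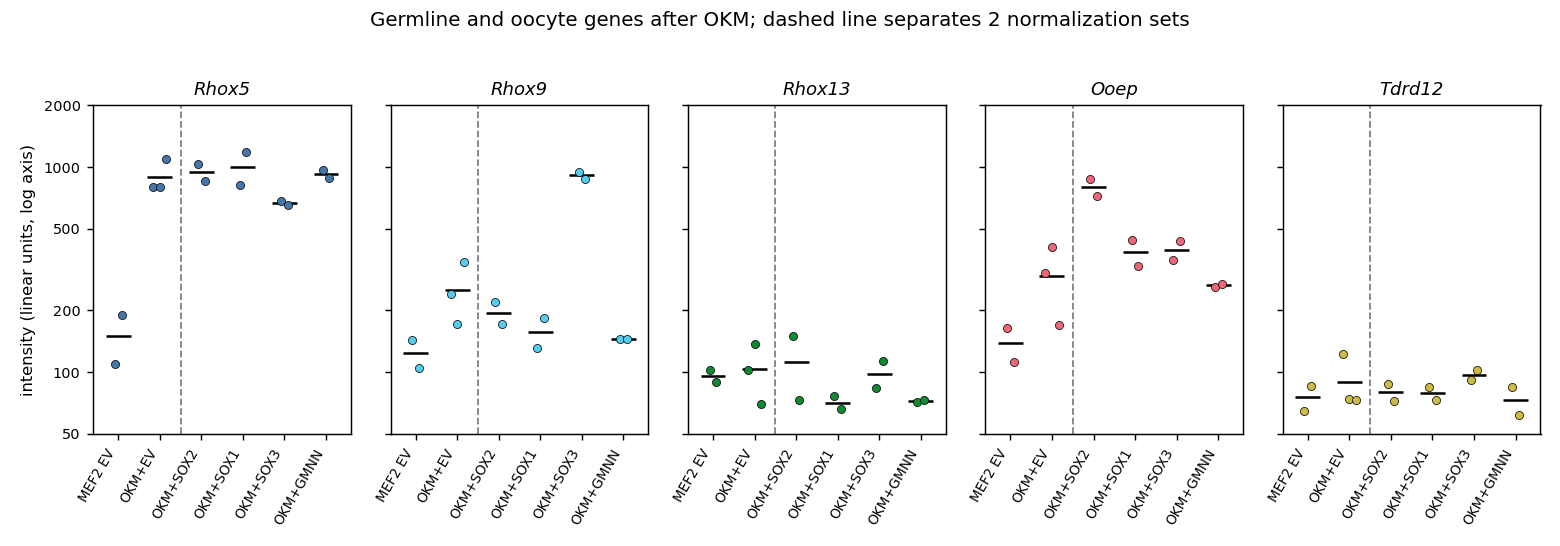
Intensity (log axis, linear units) of the 5 genes with values in MEF2 EV and OKM+EV, left of the dashed line, and in OKM with SOX2, SOX1, SOX3 or GMNN, right of it; points are arrays and bars are group means, and the 2 sides are scaled separately and are not compared. Rhox5 is higher in all 3 OKM+EV arrays than in MEF2 EV, and Rhox9 stands apart in both OKM+SOX3 arrays.

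In the SKM set, only Rhox9, Rhox13 and Ooep had values, and all 3 were dim throughout. Over the 23 arrays Rhox9 ranged from 68.7 to 214 with a median of 129, Rhox13 from 59.7 to 111 with a median of 82.4, and Ooep from 167 to 471 with a median of 314. The highest percentile in any array was 20.1 for Rhox9, 6.4 for Rhox13 and 39.3 for Ooep. None of the 3 genes was called by limma in SKM+EV against MEF1 EV, in OCT4+SKM against MEF1 EV, or in OCT4+SKM against SKM+EV, where 19.6%, 22.3% and 11% of all 10011 genes were called. At an unadjusted p under 0.05 none of the 3 passed in these comparisons either, and the share of all genes at that threshold is not given here. In OCT4+SKM, the 4 classical reprogramming factors, Rhox9 was 148 and 129, Rhox13 72.4 and 99.3, and Ooep 227 and 175. In MEF1 EV they were 183 and 181, 90.0 and 91.1, and 182 and 257.

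The F test among the 10 SKM groups called Rhox9 (adjusted p = 0.000396 by limma) and Ooep (adjusted p = 0.00340) and not Rhox13 (adjusted p = 0.618), where it called 81.4% of all genes. The differences were small. Rhox9 was 155 and 136 with SKM+EV and 214 and 209 with HNF4a, the highest group (log2 fold change 0.46, adjusted p = 0.0686). It was called lower with GATA4 (85.4, 83.7 and 127; -0.46, adjusted p = 0.0386), CEBPa (82.9 and 102; -0.52, adjusted p = 0.0481) and GRB2 (68.7 and 102; -0.61, adjusted p = 0.0173). Ooep was 167 and 314 with SKM+EV, and was called higher with SOX7 (471 and 379; 0.79, adjusted p = 0.0316) and GATA4 (414, 382 and 366; 0.68, adjusted p = 0.0126).

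Each of these 5 calls was lost without SKM+EV replicate 1, with adjusted p from 0.125 to 0.559. The calls of Rhox9 with GATA4 and CEBPa were also lost without SKM+EV replicate 2 (0.0649 and 0.0748) and with a pseudocount of 100 (0.0597 and 0.0729). Leaving out GATA4 replicate 1 (0.122) or 2 (0.125), CEBPa replicate 1 (0.249) or 2 (0.0737), or GRB2 replicate 1 (0.232) ended the Rhox9 calls, and leaving out SOX7 replicate 1 (0.251) ended that of Ooep. Without SKM+EV replicate 2, whose Ooep value of 314 stood beside 167, Ooep was also called higher with CEBPa (0.77, adjusted p = 0.0387), HNF4a (0.77, adjusted p = 0.0312) and GRB2 (0.84, adjusted p = 0.0204). Members called were 1 of 3 with SOX7, CEBPa or GRB2 and 2 of 3 with GATA4, where 12.1%, 34.6%, 40.3% and 53.9% of all genes were called. No member was called with GATA6, PAX1, HNF4a or MIXL1, where 22%, 15.7%, 42.4% and 2.08% were. Without adjustment of limma's p-values for the number of genes, 1 of the 3 would have passed 0.05 with HNF4a (Rhox9), 1 with MIXL1 (Ooep) and none with GATA6 or PAX1. The share of all genes without adjustment is not given here, so these counts have nothing to stand beside. All 9 comparisons share the SKM+EV arrays. The arrays of CEBPa, HNF4a and GRB2 had higher median intensities (412.6 to 416.1) than those of SKM+EV (407.0 and 406.9). The part of this in their calls was not tested.

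**Figure D4:**
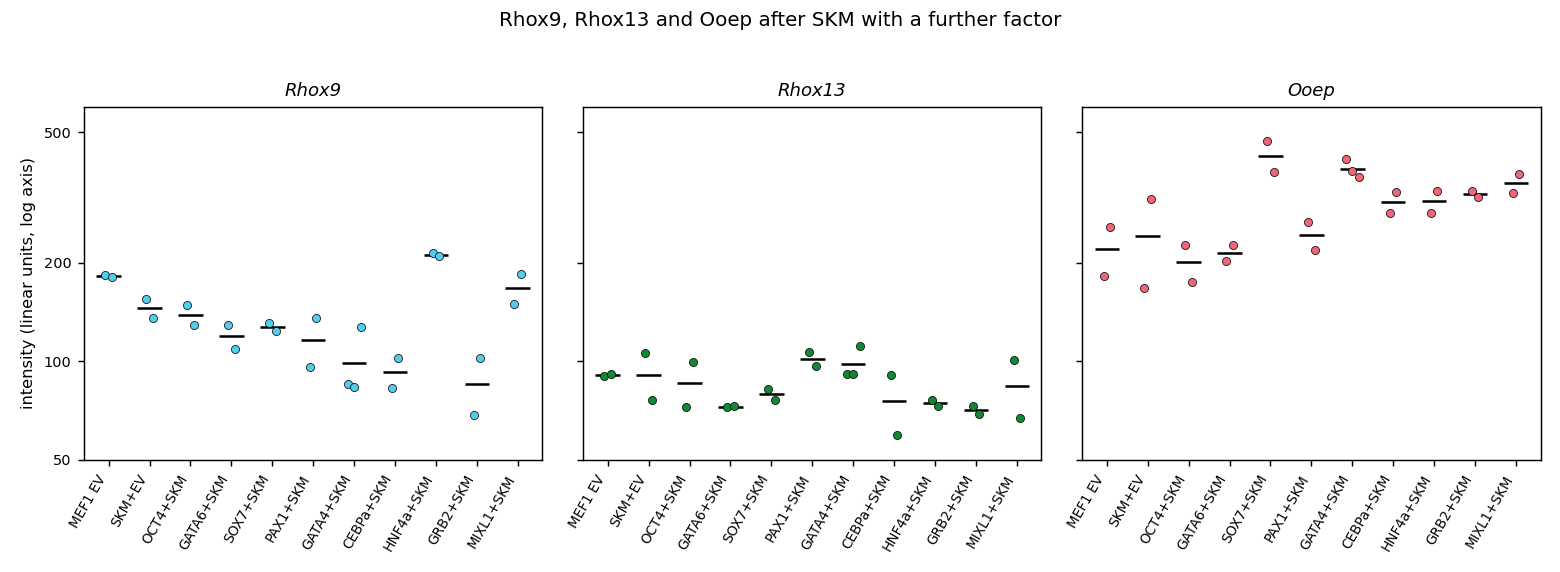
Intensity (log axis, linear units) of Rhox9, Rhox13 and Ooep in MEF1 EV and the 10 SKM groups; points are arrays (3 for GATA4+SKM, 2 for each other group) and bars are group means. All values lie between 59.7 and 471, and HNF4a+SKM has the highest Rhox9 mean and SOX7+SKM the highest Ooep mean.

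Of the related genes, Piwil2 differed from the members in this set. Against 40.2 ± 13.9 in MEF1 EV, SKM+EV had 422 ± 60.6 (SD, n = 2 for both), and the log2 difference was 2.66 (adjusted p = 1.77e-05 by limma). It was the 1 gene called of 6 piRNA genes, and limma called none of 8 oocyte, 6 meiosis and 5 germ cell RNA genes. Of 6 primordial germ cell genes Prdm1 was called higher (0.94, adjusted p = 0.000885), and of 15 methylation and repressor genes Pcgf6 was called higher (0.54, adjusted p = 0.00642) and the methyltransferase gene Dnmt3a lower (-0.93, adjusted p = 0.0156). In the set alone 2 piRNA and 2 primordial germ cell genes were called higher and 1 oocyte, 1 germ cell RNA and 2 repressor genes lower. The share of all genes called by that fit is not given here. Keratinocyte markers, over 11 of 15 genes, summed to 128143 to 132279 in SKM+EV against 5010 to 5199 in MEF1 EV, and 66476 to 71134 in OCT4+SKM. The 5 pluripotency markers with a value summed to 1072 to 1223 in SKM+EV, 1242 to 1388 in OCT4+SKM and 1738 to 1875 in MEF1 EV.

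**Figure D5:**
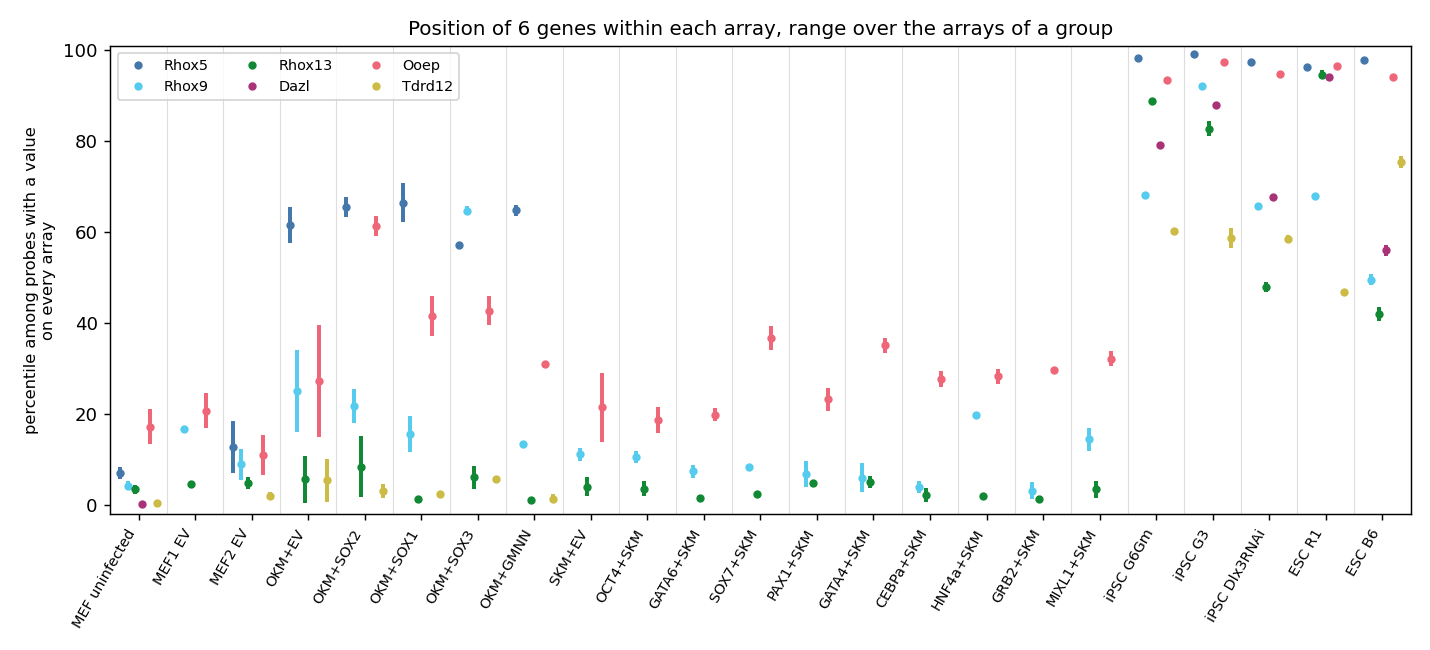
Percentile of each gene among the 9896 probes measured on all arrays, for all 23 groups; a line spans the lowest to the highest array of a group and the point is its middle, and genes without values in a group are missing. Groups of different sets stand side by side and are not compared, and a percentile depends on the probe of each gene. All 6 genes lie at or below percentile 21.1 in uninfected MEF and at or above 46.5 in the 4 pluripotent lines of that set. In ESC B6, alone in its set, they lie at or above 40.4. Rhox13 and Tdrd12 stay at or below 15.2 in all infected groups where they have values.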

How the data were processed

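RNA extracted with TRIzol was labelled with Cy5 and hybridised to one-colour arrays, per the labels. The deposited value table holds 1 linear intensity for each probe and array, and how the authors scaled it is not given in the sources used here. Missing probes separate 5 sets of 3 to 23 arrays, with median intensities from 295.9 in the set with uninfected MEF to 434.2 in ESC B6. Sorted values were near-equal within sets but not between them, with a median deviation of 0.0181% to 0.056%, but 0.671% in the SKM set. Array medians there ran from 400.8 to 416.1. They were 412.6 or more with CEBPa, HNF4a and GRB2, and 408.1 or less in the other groups. A separate scaling of those 3 groups was not tested. Of 19426 probes, 15539 had 1 gene symbol, updated through RefSeq, and 3887 had none; 30 symbols could not be updated and kept the platform's name. No 2 arrays were identical. The probe with the highest mean stood for a gene.

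Values were tested as log2(intensity + 32) with limma 3.58.1 in R 4.3.3, in 1 fit of 23 group means over 49 arrays with a trended eBayes, contrasts within sets only and Benjamini-Hochberg adjustment over all genes of a comparison. Tables were made with Python 3.11.15, pandas 2.3.3 and numpy 2.4.6. It shares 1 estimate of the spread, which is below that of both OKM sets; on simulated data it made many false calls in those sets, which a fit of each set alone did not, so the latter stands beside calls there. The set with the pluripotent lines was less noisy, and its fit alone made more calls. Alternatives changed the pseudocount, scaling, dim-gene filter, probe choice, variance trend and arrays fitted. Since each member had 1 probe, the probe choice could not change its fold change. Quantile normalization could change little where sorted values were already near-equal. Both add to the values counted below as keeping their side of the threshold.

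From each list up to 4 called genes with non-overlapping arrays and the largest change were named, and for each member the 3 genes of highest r. Rhox1, Dlx3 and the values of Rhox12 with OKM lie outside this rule and were named after their values were seen. Members and lists were chosen with earlier results of these data known.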

Additional observations from a re-analysis of the deposited data

Results flagged for a closer look

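Over the 6 members and the 6 pairs of pluripotent lines, 7 differences were called and exceeded 2 log2 units. Each held when any 1 of its 4 arrays was left out. The share of all genes past the same rule is not given here. For Rhox9 they were 2.05 in G3 against ESC R1, -2.04 in G6Gm against G3 and -2.17 in Dlx3RNAi against G3. For Rhox13 they were -3.53 in Dlx3RNAi against ESC R1, -2.09 in Dlx3RNAi against G3 and -2.70 in Dlx3RNAi against G6Gm. For Dazl it was -2.37 in Dlx3RNAi against ESC R1. These values share lines, since G3 enters all those of Rhox9 and Dlx3RNAi all those of Rhox13. No group held more than 3 arrays, so no single array was tested as standing apart from its group.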

How the results depend on the processing

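Of 1310 recomputed member values under alternatives other than leaving out an array, 1285 kept their side of the threshold, 9 lost a call and 16 gained one. No value called in either fit reversed its direction. Of 779 with 1 array left out these were 713, 60, 6 and none. Direction was not checked for values called in neither fit, and F tests have none. The counts of members called that moved by over 1.5 times were these. With a pseudocount of 16, 1 in place of 2 was called in Dlx3RNAi against G6Gm. With a pseudocount of 100, GATA4+SKM kept 1 call and CEBPa+SKM 0. With only genes above the median of all genes, which removes dim members by construction, the counts were 3 for G6Gm and 2 for Dlx3RNAi against MEF, 1 for OKM+SOX3 against OKM+SOX2, and 0 for SOX7, GATA4, CEBPa and GRB2 with SKM, OKM+EV, OKM+SOX3 against SOX1 or GMNN, and both F tests of infected groups. With each set fitted alone, they were 1 for OKM+EV, 0 for OKM+SOX1, 1 for OKM+SOX3 against SOX2 and 1 for HNF4a+SKM. Smaller moves were losses with a pseudocount of 16 of Rhox13 in G6Gm against G3 (adjusted p = 0.0711) and Ooep in Dlx3RNAi against G3 (0.0515), and gains between lines. Ooep in G6Gm against R1 and Tdrd12 in G3 against R1 gained a call under 4 alternatives each (adjusted p from 0.00118 to 0.0497 and from 0.0118 to 0.0431), Rhox5 in G6Gm against G3 under 5 (0.00326 to 0.0482), and Ooep in Dlx3RNAi against R1 with the set alone (0.0155).

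With 1 array left out, counts ranged from 2 to 3 for OKM+EV (3 with all), 0 to 2 for OKM+SOX1 (1), 1 to 2 for OKM+SOX3 against SOX2 (2), 1 to 2 for OKM+GMNN (1) and 2 to 3 for the F test among them (2). With SKM they were 0 to 1 for SOX7 (1), 0 to 2 for GATA4 (2), 0 to 1 for CEBPa (1), 0 to 1 for HNF4a (0) and 0 to 2 for GRB2 (1). Among lines they were 2 to 5 for the 3 iPSC lines against R1 (5), 1 to 2 for G6Gm (4), 3 to 4 for G3 (4) and 2 for Dlx3RNAi (3) against R1, 2 to 3 for G6Gm against G3 (4), 4 for Dlx3RNAi against G3 (5), 1 for Dlx3RNAi against G6Gm (2) and 5 to 6 for the F test (6). The other comparisons kept their counts. Leaving out an array of a group of 2 leaves 1 array in it. Some estimates whose call was lost stayed close, as for Tdrd12 in G6Gm against R1 (0.70 to 0.74, and 0.72 with all arrays). Others moved, as for Ooep in SOX7+SKM against SKM+EV without SKM+EV replicate 1 (0.40, and 0.79 with all arrays). The cause was not tested.

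Same-numbered arrays deviated together in some pairs of groups and oppositely in others (correlations from -0.504 to 0.516, with medians of 0.0107 to 0.066 in the 4 sets), so the numbers were not taken to pair the samples; a replicate block called 1 member, Rhox9, in HNF4a+SKM against 0 without it and moved no other count by over 1.5 times; of the gains just named it gave Ooep in G6Gm against R1 (adjusted p = 0.0269) and Rhox5 in G6Gm against G3 (0.0442). Groups of 2 or 3 arrays and 1 probe a gene limit the precision.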
